A study of Mus musculus with 6 samples.

Results

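Adipokines are proteins that fat cells release into the blood or into the neighbouring tissue. The aortic arch lies in a sheath of perivascular fat, and 8 adipokine genes were followed here through RNA taken from whole arches: Adipoq (adiponectin), Lep (leptin), Retn (resistin), Cfd (adipsin, complement factor D), Rbp4 (retinol binding protein 4), Rarres2 (chemerin), Apln (apelin) and Agt (angiotensinogen). A probe was taken where the gene name in the scanner files equalled one of these symbols and the spot was not a control. This gave 9 probes on 18 spots, of 55681 probes on 59305 spots in all, which carry 34821 distinct gene or transcript names. Lep was printed on 10 spots, Retn had 2 probes with 1 spot each, and the other 6 genes had 1 probe on 1 spot.

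The arrays compared bone marrow (BM) chimeric mice, in which blood-forming cells were replaced from a donor. In the BM Mir21 KO group the donors were Mir21-/-, and in the BM Mir21 WT group they were Mir21+/+. All recipients were female Mir21+/+ mice with the strain label C57BL/6, irradiated with 2 fractions of 5 Gy within 4 hours, and all were fed a high-fat diet (HFD) for 12 weeks from 3 weeks after irradiation. Each group held 3 arrays, which the series design gives as 3 mice. The deletion is therefore carried only by marrow-derived cells, while cells the host keeps, fat cells among them, carry Mir21+/+, and the share of donor cells in the arches was not analysed here. No probe was named for Mir21 (0 probes), so the genotype label could not be checked on these arrays.

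Adiponectin circulates as multimers and acts through Adipor1, Adipor2 and the binding protein Cdh13; leptin reports fat stores through Lepr; and adipsin is the protease that cleaves factor B in the alternative complement pathway. Resistin is made in mouse mainly by adipocytes. Rbp4 carries retinol together with transthyretin, chemerin draws leukocytes through Cmklr1, apelin signals through Aplnr in vessels, and angiotensinogen is the substrate of renin. In rodents the fat around the thoracic aorta has brown-like features, and its products can reach the vessel wall directly.

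The 3 probe sequences shown here belong to the adipokine whose arrays differed most, to the one with a pair of probes and to the one whose groups did not overlap. They come from the scanner files, are written 5′ to 3′ in lower case throughout, and each has at least 1 forward frame without a stop codon.
Adipoq probe: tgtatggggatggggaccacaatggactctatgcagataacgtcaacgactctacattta
Retn upstream probe: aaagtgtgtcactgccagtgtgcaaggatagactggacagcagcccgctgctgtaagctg
Agt probe: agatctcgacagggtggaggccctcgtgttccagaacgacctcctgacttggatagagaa
The position of the probes relative to exons and introns was not analysed here, and each sequence occurred on 1 probe of the array.

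Promoters were read from RefSeq (GRCm38.p6) for 7 of the 8 genes, as the 250 bases before the start, with 2 such windows for Rbp4. The last 120 bases are printed for 4 genes whose values are set side by side below: Adipoq and Cfd, which had the same order over the 3 KO arrays, and Lep and Agt, which had other orders. Capitals mark matches, on either strand, to the C/EBP palindrome TTGCGCAA, the TATA box TATAAA or the CCAAT box.
Adipoq, chr16:23146416-23146535, plus strand: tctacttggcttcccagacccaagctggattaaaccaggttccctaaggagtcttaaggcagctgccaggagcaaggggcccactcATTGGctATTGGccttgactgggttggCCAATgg
Cfd, chr10:79890733-79890852, plus strand: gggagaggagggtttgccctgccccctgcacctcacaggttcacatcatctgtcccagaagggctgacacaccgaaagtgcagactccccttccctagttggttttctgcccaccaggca
Lep, chr6:29060101-29060220, plus strand: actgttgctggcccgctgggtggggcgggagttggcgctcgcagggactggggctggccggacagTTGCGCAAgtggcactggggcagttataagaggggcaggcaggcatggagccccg
Agt, chr8:124569707-124569826, minus strand: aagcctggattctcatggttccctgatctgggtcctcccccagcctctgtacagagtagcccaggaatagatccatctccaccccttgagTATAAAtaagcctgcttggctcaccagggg
The palindrome in Lep, a form bound by C/EBP factors, lay 55 to 48 bases before the start, and 0.16% of the 32851 RefSeq windows held one. Adipoq held 3 CCAAT boxes, found in 33.85% of windows, and Agt held a TATA box 30 to 25 bases before the start, found in 12.37%. The GC box GGGCGG, found in 32.74%, also matched in Lep, 98 to 93 bases before the start. The E-box CACGTG (6.02% of windows) and the nuclear receptor half-site AGGTCA (14.02%) matched in no window of these genes, which says only that those letters are not in these 250 bases, and Cfd held none of the 6 motifs.

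Signals are log2 intensities minus the 75th percentile of the same array, so that 0 is the 75th percentile and 1 unit is a doubling. On the arrays, 66.4% to 74.4% of spots lay well above background and the 75th percentile lay between 238.9 and 407.2 intensity units, lowest on KO array 3 in both measures. All 6 arrays shared 1 slide and 1 scan, but the KO arrays filled slide row 2 and the WT arrays row 1, so that row and genotype cannot be told apart. Transcripts of fat cells were read on every array: 19 to 20 of the 20 white adipocyte markers were well above background on each KO array, against 20 on each WT array, and all 15 brown adipocyte markers were so on all 6 arrays. KO arrays 2 and 3 stood apart in these markers. The mean of the 20 white markers was 5.22, 2.86 and 1.75 on KO arrays 1 to 3, against 5.04, 4.41 and 5.42 on WT arrays 1 to 3. Values without those arrays are given for the adipokines, and for most gene lists and named genes that were low there. They set 1 KO array, assumed to vary like the others, against 3 WT arrays. That array, KO array 1, had the lowest limma array weight, 0.345, against 0.745 to 2.42 on the others. It also had the highest deviation in cardiac muscle markers (1.53, against -1.05 and 0.94 on KO arrays 2 and 3). It is therefore not a cleaner comparison.

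All 9 probes were well above background on all 6 arrays and all were tested. None of the 8 genes passed the test across all probes (limma, Benjamini-Hochberg adjusted p under 0.05), where 1 of 38341 probes passed (0.00261%). At an unadjusted p under 0.05, 1 of the 8 genes, Agt, was higher in KO arches, against 4.44% of all probes, and 0 genes were lower, against 4.27%. All 3 KO arrays lay above all 3 WT arrays for 1 gene, again Agt, against 7.58% of all probes, and all KO arrays lay below all WT arrays for 0 genes, against 6.14%. The fitted difference was negative for 4 genes (Adipoq, Retn, Cfd and Apln) and positive for 4 (Lep, Rbp4, Rarres2 and Agt). Their median was -0.09, beside 0.02 over all probes, of which 46.8% had a negative difference.

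**Figure D1:**
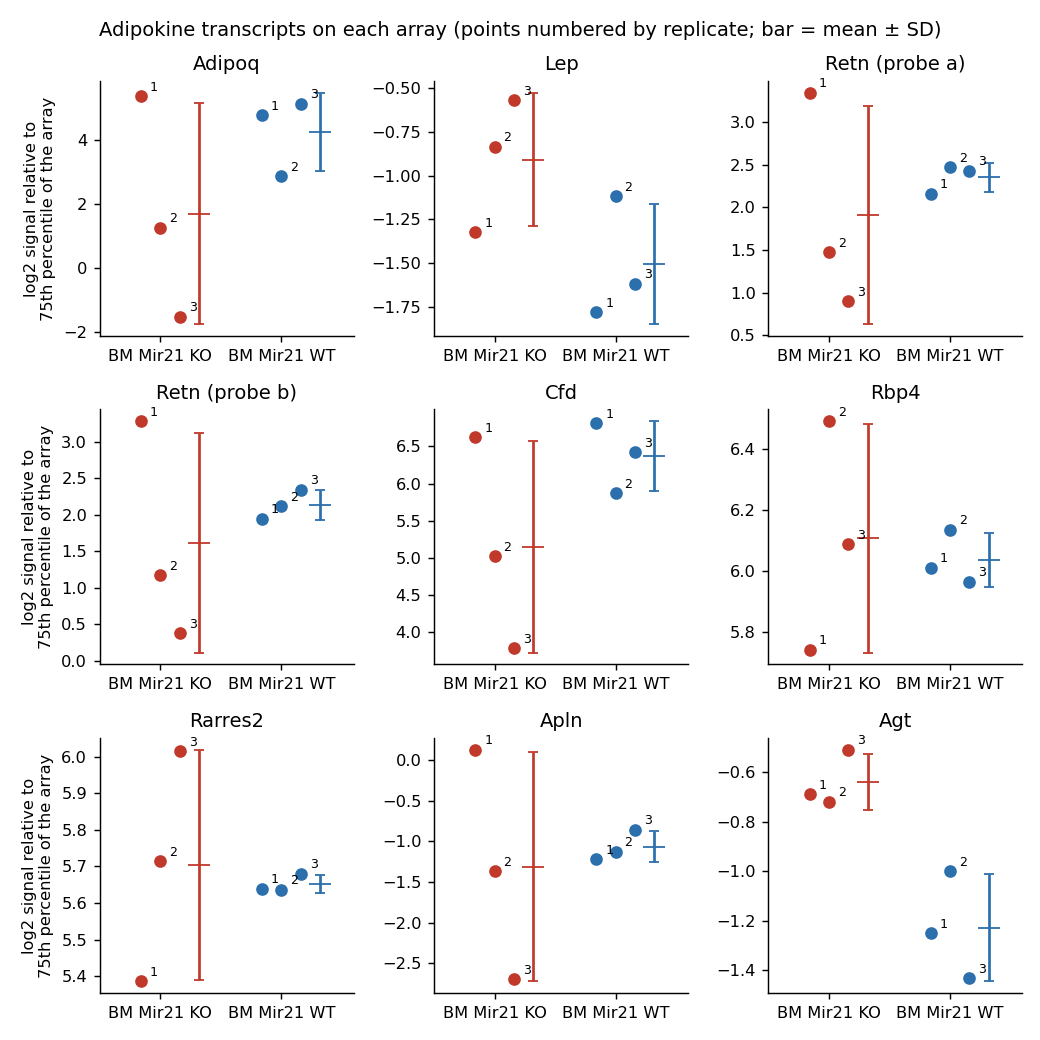
Log2 signal relative to the 75th percentile of the array for each of the 9 adipokine probes, KO arrays left (red) and WT arrays right (blue), points numbered by replicate, with the mean and SD as a bar. The KO points of Adipoq run from 5.37 to -1.53 while its WT points lie between 2.87 and 5.14, and Agt is the gene whose KO points all lie above its WT points.

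Adiponectin, the most abundant secreted product of fat cells and an insulin sensitiser, varied more between KO arches than any other transcript tested. Adipoq (mm9 chr16:23157576-23157635) read 5.37, 1.26 and -1.53 on KO arrays 1 to 3, against 4.78, 2.87 and 5.14 on WT arrays 1 to 3. In intensity units these were 13600, 924.5 and 82.69 on the KO arrays, against 11040, 2481 and 14400 on the WT arrays. KO array 1 was above WT arrays 1, 2 and 3, KO arrays 2 and 3 were below all of them, and the groups overlapped. The KO range of 6.90 was exceeded by 0 of the 38341 probes, and the WT range of 2.27 by 0.472%. The means were 1.70 ± 3.47 in KO and 4.26 ± 1.22 in WT arches (SD, n = 3 each), a KO minus WT difference of -2.57 ± 1.56 (SE). This is 5.92-fold lower in KO, with a 95% interval of -6.21 to 1.08 and a limma adjusted p of 0.670, so the difference did not exceed the spread between arrays. Only 0.0704% of probes, this one included, had a difference at least as negative. With both KO arrays 2 and 3 left out, so that 1 KO array stands against 3, the difference was 1.10, opposite in sign.

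Adipsin, the complement protease that mouse adipocytes secrete in quantity, followed the same order over the KO arrays with smaller steps. Cfd (mm9 chr10:79355302-79355361) read 6.63, 5.02 and 3.78 on the KO arrays, against 6.81, 5.87 and 6.42 on the WT arrays. KO arrays 2 and 3 lay below every WT array and KO array 1 lay between WT arrays 1 and 3, so the groups overlapped. The difference was -1.22 ± 0.65, or 2.34-fold lower in KO, with a 95% interval of -2.74 to 0.29 and a limma adjusted p of 0.638. Its KO range of 2.84 was exceeded by 0.955% of probes. Without KO arrays 2 and 3 the difference was 0.26, opposite in sign.

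Resistin, which opposes insulin action in mice, was read by a pair of probes that gave the same picture. The downstream probe (mm9 chr8:3659757-3659816) read 3.35, 1.48 and 0.90 on the KO arrays, against 2.16, 2.47 and 2.43 on the WT arrays. The upstream probe (mm9 chr8:3657312-3657371), whose sequence is printed above, read 3.29, 1.18 and 0.37 on the KO arrays, against 1.95, 2.12 and 2.35 on the WT arrays. On both probes KO array 1 was above the WT arrays and KO arrays 2 and 3 were below them. The differences were -0.45 ± 0.56 for the downstream probe and -0.53 ± 0.66 for the upstream probe, with limma adjusted p of 0.841 and 0.840. The SD was 1.28 in KO and 0.17 in WT arches on the downstream probe (n = 3 each). Without KO array 3 the difference of the downstream probe was 0.06, and without KO arrays 2 and 3 it was 0.99.

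Apelin, the peptide ligand of the vascular receptor Aplnr, showed the same split. Apln (mm9 chrX:45378593-45378652, minus strand) read 0.13, -1.37 and -2.69 on the KO arrays, against -1.22, -1.13 and -0.86 on the WT arrays. KO array 1 was the highest of the 6 arrays and KO array 3 the lowest, at an intensity of 36.93 that was still well above background. The difference was -0.24 ± 0.62 (limma adjusted p = 0.932). It was 0.45 without KO array 3 and 0.01 with normexp background correction, both opposite in sign.

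Leptin, whose transcript reflects adipocyte size and fat stores, ran the other way. Lep (mm9 chr6:29023234-29023293) read -1.32, -0.83 and -0.57 on the KO arrays, against -1.78, -1.12 and -1.62 on the WT arrays. WT array 2 lay above KO array 1 and the other WT arrays lay below all KO arrays, so the groups overlapped by that pair. The means were -0.91 ± 0.38 in KO and -1.51 ± 0.34 in WT arches (SD, n = 3 each), a difference of 0.60 ± 0.26, or 1.52-fold higher in KO. The limma adjusted p was 0.576, and the 95% interval ran from -0.005 to 1.20. KO arrays 2 and 3, lowest in Adipoq, Cfd and the white markers, were the highest arrays for Lep. The spots of this probe differed among themselves by an SD of 0.34 to 0.656 on the KO arrays (10 spots each) and 0.157 to 0.45 on the WT arrays (8, 6 and 10 spots after outlier spots were left out). Without KO arrays 2 and 3 the difference was 0.18.

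Angiotensinogen, the precursor from which renin and converting enzyme make angiotensin, was the adipokine with separated groups. Agt (mm9 chr8:127083142-127083201, minus strand) read -0.69, -0.72 and -0.51 on the KO arrays, against -1.25, -0.999 and -1.43 on the WT arrays. The lowest KO array stood above the highest WT array, and the KO range of 0.211 was exceeded by 88.4% of probes. In intensity units, before scaling, Agt was 204.4, 234.6 and 168 on the KO arrays, against 169.1, 169.9 and 150.9 on the WT arrays. KO array 3 then lay within the WT range, so the separation holds for the scaled values. The means were -0.64 ± 0.11 in KO and -1.23 ± 0.22 in WT arches (SD, n = 3 each), a difference of 0.59 ± 0.17, or 1.5-fold higher in KO, with a 95% interval of 0.18 to 0.99. The unadjusted limma p was 0.0106, which ranked 863 of 38341, and the adjusted p was 0.468, so it did not pass the test. Unlike the 4 genes with negative differences, the value without KO arrays 2 and 3 was 0.54, in the same direction.

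The retinol carrier Rbp4 and chemerin had the differences nearest to 0 among the 8 genes. Rbp4 (mm9 chr19:38191120-38191179, minus strand) read 5.74, 6.49 and 6.09 on the KO arrays, against 6.01, 6.14 and 5.96 on the WT arrays. The difference was 0.07 ± 0.21, with a 95% interval of -0.43 to 0.57 and a limma adjusted p of 0.946. Rarres2 (mm9 chr6:48519775-48519969, minus strand, a span wider than the 60-base probe) read 5.39, 5.71 and 6.02 on the KO arrays, against 5.64, 5.64 and 5.68 on the WT arrays. Its difference was 0.05 ± 0.19, with an interval of -0.40 to 0.50 and a limma adjusted p of 0.954. The WT range of Rarres2 was 0.0424, which 98.7% of probes exceeded, while its KO range was 0.629. For Rarres2 the KO arrays lay on either side of the WT arrays, for Rbp4 KO array 1 lay below, KO array 2 above and KO array 3 within the WT range, and for both the sign of the difference turned when KO array 2 (Rbp4, -0.12) or KO array 3 (Rarres2, -0.10) was left out.

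**Figure D2:**
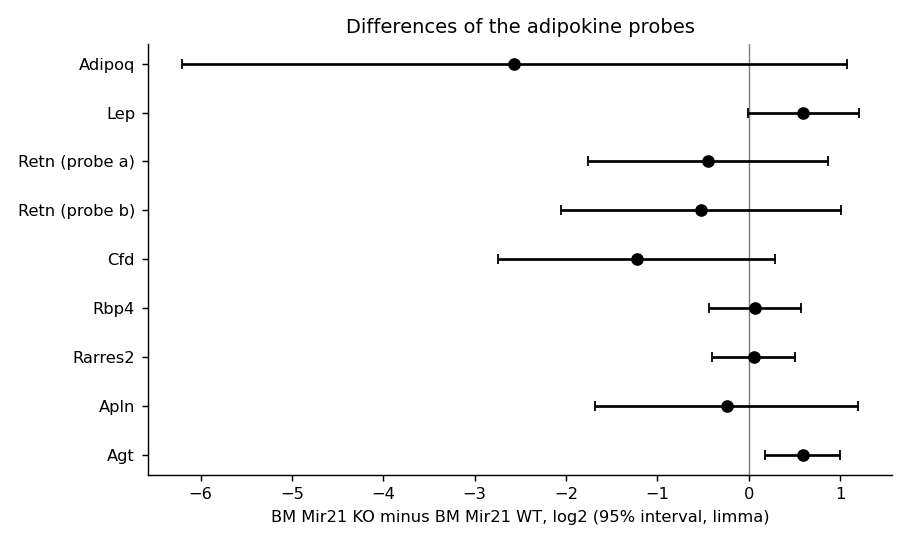
BM Mir21 KO minus BM Mir21 WT difference of each adipokine probe on the log2 scale, with the 95% interval from limma. The interval of Agt (0.18 to 0.99) lies above 0 before adjustment, that of Lep reaches -0.005, and that of Adipoq is the widest, from -6.21 to 1.08.

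The adipokines thus fell into sets by their spread between KO arches. Adipoq, Cfd, Apln and both Retn probes had KO ranges from 2.44 to 6.90, each exceeded by at most 1.47% of probes, and all had their highest KO value on array 1 and their lowest on array 3. Lep, Rbp4, Rarres2 and Agt had KO ranges from 0.211 to 0.756, against a median of 0.516 over all probes. Among WT arches the ranges ran from 0.0424 for Rarres2 to 2.27 for Adipoq, beside a median of 0.359. The genes with large KO ranges were not all those with large WT ranges: those of the Retn probes, 0.31 and 0.40, were close to that median, and that of Apln was 0.365.

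The same arrays differed in fat-cell transcripts as a whole. Of the 20 white adipocyte markers, 20 had a negative difference (median -1.70) and 0 passed the adjusted test. At an unadjusted p under 0.05, 6 of the 20 were lower, against 4.27% of all probes. Of the 15 brown adipocyte markers, 14 had a negative difference (median -2.15), with 0 past the adjusted test. At an unadjusted p under 0.05, 1 of the 15 was lower, against the same 4.27% of all probes. Ucp1, which uncouples respiration in brown fat, read 7.96, 5.01 and 3.23 on the KO arrays, against 7.87, 7.22 and 8.0 on the WT arrays. Plin1, which coats the lipid droplet, read 4.54, 1.19 and -0.02 on the KO arrays, against 4.02, 3.41 and 4.46 on the WT arrays. KO array 1 was within or above the WT range for both, and KO arrays 2 and 3 were below it. Not every marker moved as far: Plin4 read 6.22, 6.05 and 6.08 on the KO arrays, against 6.38, 6.26 and 6.20 on the WT arrays (-0.17 ± 0.15). Without those 2 arrays, 5 of 20 white markers (median 0.18) and 2 of 15 brown markers (median 0.45) had a negative difference, and the values were 0.26 ± 0.35 for Ucp1 and 0.58 ± 0.42 for Plin1. In RNA from whole arches, fewer fat cells and less of a transcript per fat cell cannot be told apart, and the part of fat content in the adipokine values was not tested.

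**Figure D3:**
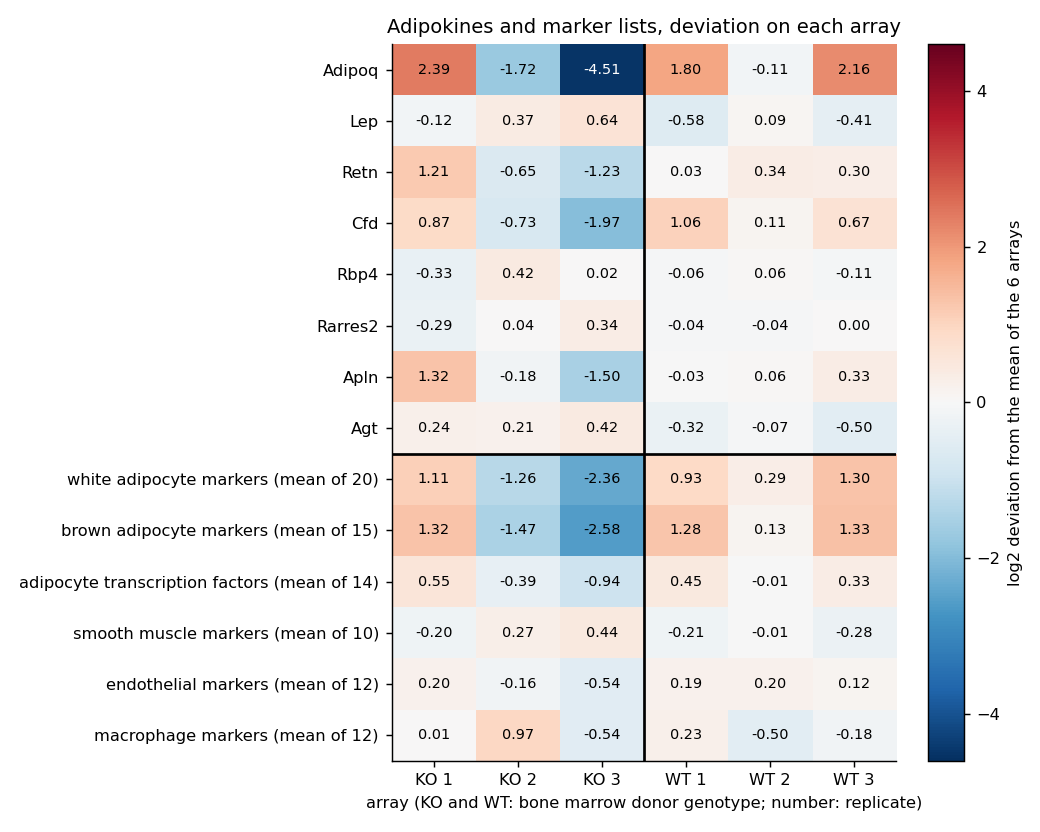
Deviation of each adipokine (upper block) and of the mean of each marker list (lower block) from its own mean over the 6 arrays, in log2 units, KO arrays left of WT arrays. The white adipocyte markers deviate by 1.11, -1.26 and -2.36 on the KO arrays and by 0.93, 0.29 and 1.30 on the WT arrays, and the rows of Adipoq and Cfd carry the same signs on the KO arrays.

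Set against the white markers of the same array, Adipoq and Cfd no longer followed the same order over the KO arrays. Here the mean of the 20 markers was subtracted from each array in place of the 75th percentile, which moved the median difference of all probes to 1.70. Relative to the white markers, Cfd read 1.40, 2.17 and 2.03 on the KO arrays, against 1.77, 1.46 and 1.0 on the WT arrays, a difference of 0.45 ± 1.10. Adipoq, relative to the same markers, still read 0.14, -1.60 and -3.28 on the KO arrays, against -0.26, -1.54 and -0.27 on the WT arrays, a difference of -0.89 ± 1.10. The limma SE was 1.10 for every adipokine probe on this scale, so it does not measure the spread of a single gene. The SDs in KO and WT arches were 0.41 and 0.39 for Cfd, and 1.71 and 0.73 for Adipoq. The p-values on this scale rest on that shared SE. KO array 3 was the lowest array for Adipoq on either scale, whereas for Cfd the lowest array relative to the markers was WT array 3. The differences of Retn (1.23 on the downstream probe), Apln (1.44), Rbp4 (1.75), Rarres2 (1.73), Lep (2.28) and Agt (2.27) were positive on this scale, those of Rbp4, Rarres2, Lep and Agt at or above the median of all probes. With this scale 0 of 8 genes passed the adjusted test in limma (adjusted p from 0.223 to 0.685), where 3 of 38341 probes did (0.00782%), and Lep and Agt were higher at an unadjusted p under 0.05 (0.0376 and 0.0386), as were 6.2% of all probes. Without KO array 1 the count was 7 of 8 genes, 6 with a positive difference and Adipoq with a negative one (-1.75 ± 0.66), beside 98.0% of all probes and a median difference of 2.68 over all of them. Cfd did not pass, and the Retn probes fell on either side of the threshold (limma adjusted p = 0.0239 downstream and 0.0502 upstream). Their differences were alike, at 1.49 and 1.29 with the same SE of 0.66. Where 98.0% of all probes pass, a pass with a positive difference does not set a gene apart.

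**Figure D4:**
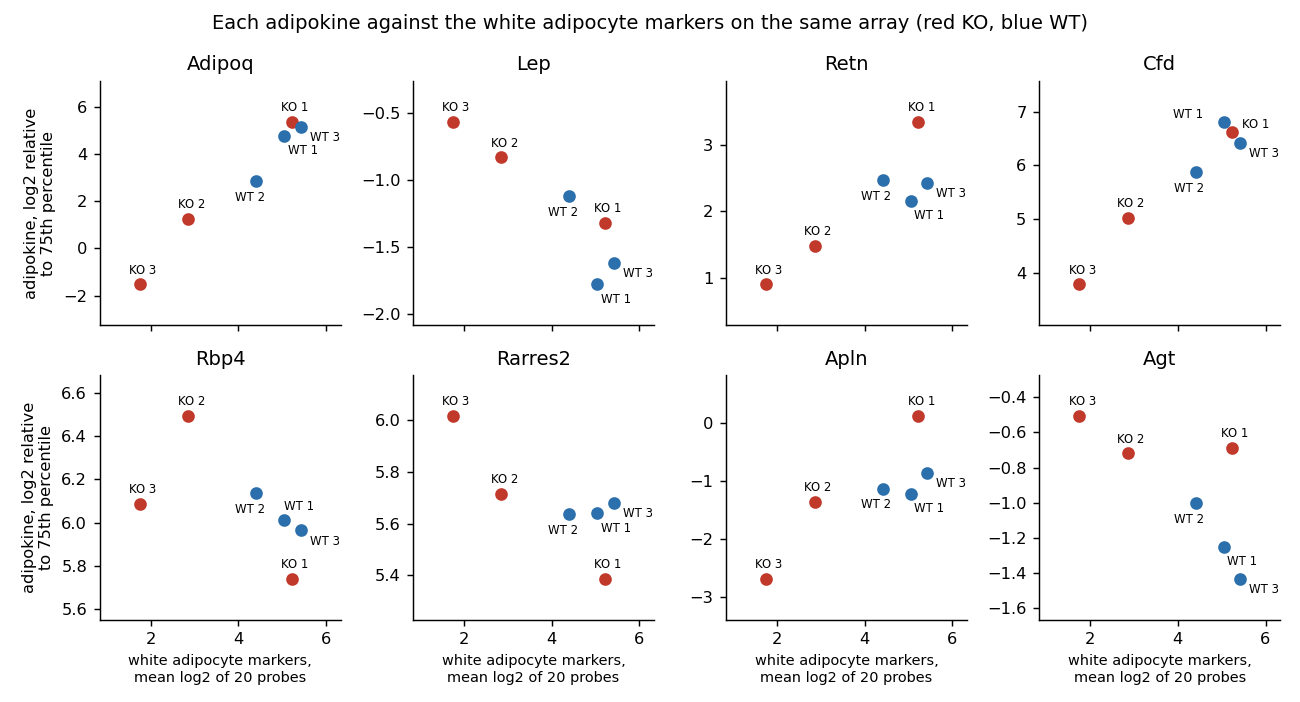
Each adipokine (vertical axis, log2 relative to the 75th percentile) against the mean of the 20 white adipocyte markers on the same array (horizontal axis, log2), KO arrays red and WT arrays blue. Adipoq and Cfd are lowest on KO array 3, where the markers average 1.75, and highest on arrays where the markers average above 5, while Lep is highest on KO array 3.

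The receptors of the adipokines showed no common direction. Of 17 receptor genes, 15 were tested, 6 with a negative and 9 with a positive difference (median 0.06), and 0 passed the adjusted test. Stra6, the membrane receptor that takes retinol from Rbp4, read -3.12, -2.66 and -2.62 on the KO arrays, against -3.23, -3.23 and -3.24 on the WT arrays. It was the 1 of 15 receptors at an unadjusted p under 0.05, being higher in KO, as were 4.44% of all probes. Stra6 was also the 1 receptor with all KO arrays above all WT arrays, against 7.58% of all probes (0.44 ± 0.18, limma adjusted p = 0.573). Adipor2, the adiponectin receptor with the larger difference, read 6.56, 4.90 and 4.68 on the KO arrays, against 6.56, 5.74 and 6.26 on the WT arrays (-0.81 ± 0.49, adjusted p = 0.669). Adipor1 had a difference of -0.29 ± 0.17, and Cdh13, which binds adiponectin multimers on vascular cells, one of 0.42 ± 0.27. The leptin receptor Lepr differed by 0.29 ± 0.24. Without KO arrays 2 and 3 the difference was 0.37 ± 0.35 for Adipor2, opposite in sign, -0.09 ± 0.30 for Cdh13, also opposite, and 0.12 ± 0.18 for Stra6.

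Among the receptors for apelin, angiotensin and chemerin, Aplnr, the apelin receptor of endothelium, was ordered over the KO arrays as its ligand was. It read -0.78, -3.06 and -3.41 on the KO arrays, against -1.39, -1.52 and -0.98 on the WT arrays, a difference of -1.12 ± 0.63 (limma adjusted p = 0.653). Like Apln it was highest on KO array 1 and lowest on KO array 3. Agtr1a, the main angiotensin II receptor of the mouse vessel wall, differed by -0.62 ± 0.49, and the chemerin receptors Cmklr1 and Gpr1 by 0.30 ± 0.25 and -1.21 ± 0.62. Without KO arrays 2 and 3 these differences turned positive for Aplnr (0.52 ± 0.27), Agtr1a (0.54 ± 0.37) and Gpr1 (0.21 ± 0.53). On KO arrays 2 and 3 Gpr1 lay below the lowest signal of the array that was well above background. Its negative difference, and so its turn in sign, therefore rests on values near the floor. Agtr2 was not well above background on any array, and Agtr1b was not tested. Endothelial markers deviated by 0.20, -0.16 and -0.54 on the KO arrays, against 0.19, 0.20 and 0.12 on the WT arrays. Of these 12 markers, 10 had a negative difference (median -0.18) and 0 passed the adjusted test. Without KO arrays 2 and 3, 6 of 12 were negative (median 0.01). The part of these markers in the Aplnr result was not tested.

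**Figure D5:**
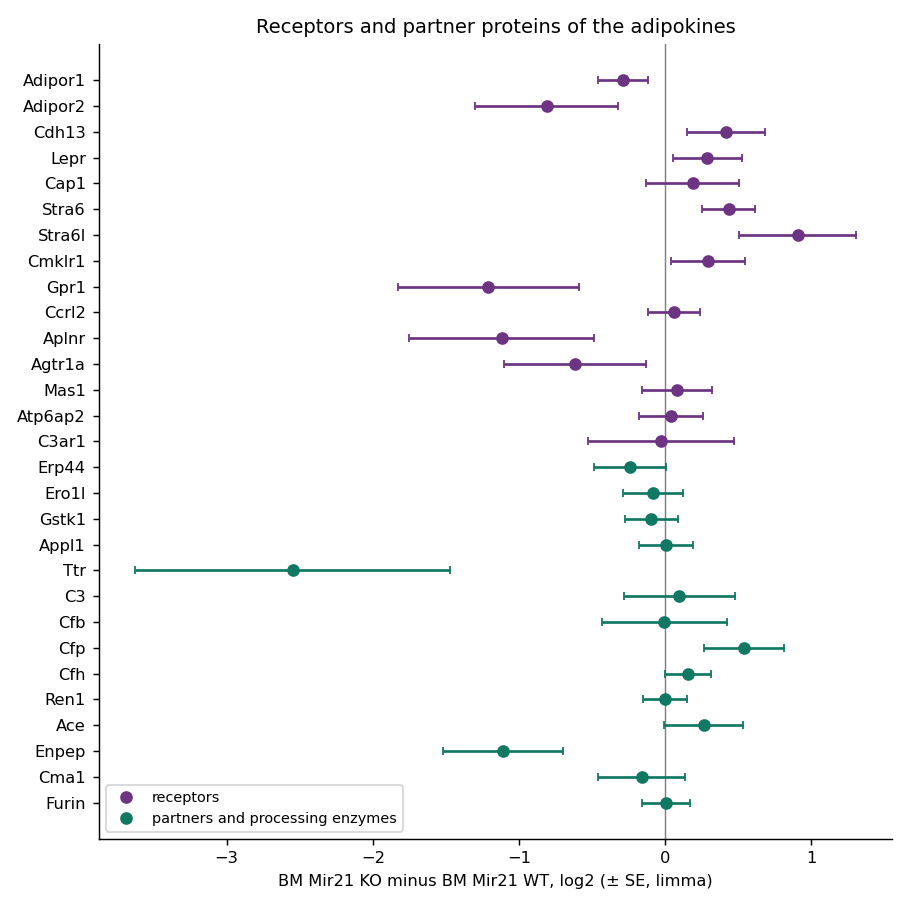
BM Mir21 KO minus BM Mir21 WT difference (log2, ± SE from limma) of the 15 tested receptors and the 14 tested partner and processing genes. Most intervals lie within 1 unit of 0, and Ttr, at -2.55, is the farthest. The signal of Ttr on KO array 2 and that of Gpr1 on KO arrays 2 and 3 lay near the floor.

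Partners and processing enzymes were tested for 14 of 15 genes, 7 with a negative and 7 with a positive difference (median -0.002), and 0 passed the adjusted test. Erp44 and Ero1l, which handle adiponectin in the endoplasmic reticulum before its release, differed by -0.24 ± 0.25 and -0.08 ± 0.20. In the complement branch that adipsin serves, C3 differed by 0.10 ± 0.38, Cfb, the adipsin substrate, by -0.01 ± 0.43, and properdin (Cfp) by 0.54 ± 0.27. In the angiotensin branch, Ren1 differed by 0.00 ± 0.15 and Ace by 0.26 ± 0.27. Enpep, the aminopeptidase that trims angiotensin II, read -2.47, -4.12 and -2.90 on the KO arrays, against -2.01, -2.37 and -1.77 on the WT arrays. All KO arrays lay below all WT arrays for this 1 of the 14 genes, against 6.14% of all probes. The difference of -1.11 ± 0.41 had a limma adjusted p of 0.539, and was -0.42 ± 0.28 without KO arrays 2 and 3. Ttr, which carries Rbp4 in blood, read -4.85, -7.14 and -2.38 on the KO arrays, against -2.14, -1.41 and -3.17 on the WT arrays. That difference of -2.55 ± 1.08 (limma adjusted p = 0.573) came with overlapping groups, and was -2.6 without KO arrays 2 and 3. Albumin (Alb), a liver marker, read -3.55, -6.83 and -0.70 on the KO arrays, against 0.12, -2.99 and -1.81 on the WT arrays. KO array 2 was lowest for both genes. On that array both lay below 12.6 intensity units, the lowest signal there that was well above background. The Ttr difference thus rests in part on a value near the floor, and the part of other tissue in Ttr was not tested.

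Other adipocyte-secreted proteins and the factors that drive adipokine genes were described in the same way. Of 25 further secreted proteins, 20 were tested, 11 with a negative and 9 with a positive difference (median -0.17), with 0 past the adjusted test. C1qtnf3, an adiponectin paralogue, was the 1 of these 20 with all KO arrays below all WT arrays, against 6.14% of all probes. It read -0.56, -1.03 and -1.32 on the KO arrays, against -0.47, -0.29 and -0.21 on the WT arrays. Its difference of -0.65 ± 0.22 had an adjusted p of 0.513. Nrg4, a secreted growth factor of brown fat, read 1.5, -1.36 and -1.92 on the KO arrays, against 1.44, 0.59 and 1.52 on the WT arrays (-1.78 ± 0.82). Listed beside it, Nampt differed by -0.83 ± 0.50, Metrnl by -0.22 ± 0.29 and Sfrp5 by 0.175 ± 0.364, the last in the other direction. Among 14 adipocyte transcription factors, 10 had a negative difference (median -0.52) and 0 passed. Pparg, which activates Adipoq and Cfd in adipocytes, read 4.50, 1.80 and 1.01 on the KO arrays, against 4.28, 3.19 and 4.11 on the WT arrays (-1.42 ± 0.82). Cebpa read 3.13, 0.41 and -1.81 on the KO arrays, against 2.13, 0.55 and 2.99 on the WT arrays (-1.31 ± 1.18). Differences were smaller for Cebpb (-0.64 ± 0.47) and Cebpd (-0.11 ± 0.28). Klf15 was the 1 of 14 factors with all KO arrays below all WT arrays, against 6.14% of all probes. It read 1.17, 1.59 and 1.47 on the KO arrays, against 2.73, 2.06 and 1.82 on the WT arrays (-0.79 ± 0.26, limma adjusted p = 0.499). Without KO arrays 2 and 3, 8 of 20 secreted proteins (median 0.23) and 3 of 14 factors (median 0.26) had a negative difference. Nrg4 then differed by 0.32 ± 0.41, Pparg by 0.64 ± 0.46 and Cebpa by 1.25 ± 0.91, all opposite in sign. C1qtnf3 (-0.24 ± 0.20) and Klf15 (-1.03 ± 0.38) stayed negative.

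Within the resistin-like family, Retnla, made mainly by alternatively activated macrophages, read 3.65, 1.89 and 1.92 on the KO arrays, against 3.48, 2.32 and 4.08 on the WT arrays (-0.81 ± 0.59). It differed by 0.35 ± 0.67 without KO arrays 2 and 3. Retnlg, expressed in neutrophils, differed by -0.22 ± 0.70, and Retnlb was not well above background on any array. Markers of other cell types moved in several directions over the arrays: smooth muscle 0.28 (median difference, 9 of 10 positive), macrophage 0.25 (9 of 12), cardiac muscle 0.84 (8 of 9) and thymocyte -0.54 (7 of 9 negative). Those medians, without KO arrays 2 and 3, were 0.002 for smooth muscle, 0.07 for macrophage, 2.05 for cardiac muscle and -0.06 for thymocyte markers. None of these markers passed the adjusted test, and their part in the adipokine values was not tested.

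The genes most like each adipokine over the 6 arrays were looked up among 19877 tested probes by Pearson r, as a description, since the arrays share a slide and a scan and differed in fat-cell markers. Each r is picked as the highest of many over 6 arrays. Every adipokine had a nearest gene at 0.9843 or more, so a high r does not set a pair apart. Some of these genes varied little over the arrays (SD 0.107 for Rnpepl1 and 0.148 for Gjb1). For Adipoq these were Sh2b2, an adaptor of insulin receptor signalling, at r = 0.9988, the amino acid transporter Slc36a2 at 0.9985 and the clathrin adaptor subunit Ap1g2 at 0.9973. For Cfd they were Clstn2 at 0.9987, Ppyr1 at 0.9985 and the connexin Gjb1 at 0.998. Adipoq and Cfd correlated with each other at r = 0.985, and Lep with Adipoq at -0.913. For Lep the nearest were Mrvi1 at 0.997, Nsa2 at 0.9957 and Pacs2 at 0.9945. For Agt they were the ribosome biogenesis factor Pes1 at 0.9963, Spata2 at 0.9948 and Rnpepl1 at 0.9945. For the others the nearest genes were Plxnd1 (Retn, 0.9922), Kcnn4 (Rbp4, 0.9843), Glod4 (Rarres2, 0.9953) and Pdxk-ps (Apln, 0.9922). Retn and Apln correlated at 0.951, and Rarres2 with Apln at -0.979 over the same arrays.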

How the data were processed

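The deposited scanner files held 1 colour (Cy3) and gave an intensity per spot from which background was already subtracted. Per the file headers the software was Agilent Feature Extraction, version 10.7.3.1, and the build mm9. Per the labels, 100 ng of RNA with RIN above 7.5 was used. The authors' deposited series table gave the same intensity to within 0.497%, with column medians from 32.1 to 54.3.

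Values were log2 intensity minus the 75th percentile of each array over 59305 non-control spots. Outlier spots were left out and spots of a probe averaged. The 38341 tested probes were well above background on all 3 arrays of a group, and 10 more were set aside for outlier spots. limma 3.58.1 (R 4.3.3) gave 2-sided p-values, adjusted by Benjamini-Hochberg across every tested probe at a threshold of 0.05. The brightest probe stood for a gene, and both Retn probes are given. Genes named were the 8 adipokines, receptors and partners, some of the first 4 tested genes of other lists, any past the test and those of highest r. C1qtnf3 and Klf15 were named after their values were seen. The adipokines and lists were chosen with earlier results of these data known.

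Alternatives covered background correction, normalization, filter, value source, variance model, array weights, replicate block, left-out arrays and centring on fat markers. The test was checked on simulated data, in which 200 probes per run were shifted by a known amount. It called 8.36% of shifts of 1 log2 unit, 79.7% of 2 units and 94.5% of 3 units, so most differences of 1 unit would be missed. Simulated variances were drawn from the prior fitted over all probes, not from the spread of each probe. The number of arrays limits the precision.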

Additional observations from a re-analysis of the deposited data

How the results depend on the processing

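Every one of 18 alternatives left 0 of 8 adipokine genes past the adjusted test, and Lep (0.18 to 2.28; adjusted p from 0.164 to 1) and Agt (0.48 to 2.27; adjusted p from 0.161 to 1) kept a positive difference in all of them. The highest values of Lep and Agt came with white-marker centring, which moved the median difference of all probes to 1.70. The cause of the changes that follow was not tested. Over all probes, 1 passed in the reported fit, 4 with normexp, 2 with median centring, 0 with probes well above background on all 6 arrays, 2 with array weights, 2 with a prior variance fitted as trended and robust, 3 with centring on the white markers and 1 to 2 with 1 array left out. Leaving out KO replicates 2 and 3 together, chosen after seeing the data, gave 2 probes and a median adipokine difference of 0.40. The median was -0.09 as reported, 1.58 with white-marker centring (beside 1.70 over all probes) and -0.38 to 0.07 with 1 array left out. Relative to the white markers, 0 genes passed as reported, 5 with array weights (Lep, Rbp4, Rarres2, Apln and Agt, beside 93.3% of all probes), and 0 to 7 with 1 array left out (7 without KO replicate 1). Signs turned as follows. Without KO replicates 2 and 3 they were 1.10 for Adipoq, 0.99 for Retn, 0.26 for Cfd, -0.30 for Rbp4, -0.27 for Rarres2 and 1.19 for Apln. With white-marker centring the values were 1.23 for Retn, 0.45 for Cfd and 1.44 for Apln. Those lie below the median of 1.70 over all probes on that scale, so the turn in sign goes with the shift of the scale. Normexp gave 0.0051 for Apln. With 1 array left out, ranges were -4.40 to -0.95 for Adipoq, -1.16 to 0.058 for Retn, -1.97 to -0.54 for Cfd, -0.12 to 0.25 for Rbp4, -0.10 to 0.21 for Rarres2 and -0.96 to 0.45 for Apln.

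Replicate numbers did not pair the arrays: deviations of same-numbered arrays correlated at 0.12, 0.05 and -0.28. With the replicate block, 1 probe and 0 adipokine genes passed, relative to the white markers 0 genes, the median difference was -0.09, and Agt had 0.59 (adjusted p = 0.618). A slide or scan block could not be fitted, since there was 1 slide and 1 scan. With outlier spots kept, also chosen after seeing the data, Lep differed by 0.64.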
